A study of Mus musculus with 4 samples.

Results

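Cyp2d9, Cyp2d10, Cyp2d22, Cyp2d26, Cyp2f2 and Cyp2j5 are cytochrome P450 enzymes of the mouse liver. These 6 genes, of 28090 gene names on the array, were read by every non-control probe filed under one of their names, which gave 11 of 41174 probes. Of these, 8 probes belong to the Cyp2d genes, 1 to Cyp2f2 and 2 to Cyp2j5. The groups compared were 2 LB1 mice and 2 control mice, all female and of the strain labelled BALBc, with livers taken 20 days after inoculation. The series concerns a Lactobacillus isolate from ostrich and its effects on body weight, gut bacteria and metabolism. The sources used here do not say what LB1 stands for, what the control mice received, or the age of the animals, and the titles of the LB1 samples read "stuff" in place of LB1. Each liver was measured on 1 whole-genome array with 1 dye, Cy3.

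Cytochrome P450s are haem enzymes of the endoplasmic reticulum that insert oxygen into fat-soluble molecules, with electrons handed over by the reductase Por and by cytochrome b5. The Cyp2d genes form a cluster on mouse chromosome 15, where the human genome has the drug-metabolising gene CYP2D6. Cyp2f2 is known in mice for activating naphthalene and styrene in the airway club cell, and is also expressed in liver. Cyp2j5 makes epoxides of arachidonic acid and is known from mouse kidney and liver.

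The Cyp2d genes are close copies of each other, so the letters of their probes decide which transcript is read. The 4 probes below, from the deposited files, are both Cyp2d9 probes and a probe each of Cyp2d10 and Cyp2d22. The other probes of Cyp2d10 and Cyp2d22 and that of Cyp2d26 are not shown. Positions follow the files' mm9 coordinates with a first base of 1, and no exon or untranslated-region annotation of that build was used here. The Cyp2d9 probes lie at chr15:82286799-82286858 and chr15:82286832-82286891 on the plus strand. Capitals mark the 27 bases that both hold.
Cyp2d9 A_51_P478303: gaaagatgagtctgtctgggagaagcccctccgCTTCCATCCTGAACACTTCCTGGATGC
Cyp2d9 A_51_P124133: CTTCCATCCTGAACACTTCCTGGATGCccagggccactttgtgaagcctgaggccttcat
Cyp2d10 A_52_P527775: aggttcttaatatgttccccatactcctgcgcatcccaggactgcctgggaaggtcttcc
Cyp2d22 A_51_P124126: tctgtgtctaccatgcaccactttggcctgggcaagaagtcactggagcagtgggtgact
The files list the transcripts of 3 genes for the first Cyp2d9 probe (Cyp2d9, Cyp2d11 and Cyp2d22) and of 4 for the second, which adds Cyp2d34. A signal at either probe may therefore come from any of them. The Cyp2d10 probe spans chr15:82234977-82235666 on the minus strand, which is 690 bases for a probe of 60, so it crosses at least 1 gap in the genome. The Cyp2d22 probe lies at chr15:82204377-82204436 on the minus strand. For the Cyp2d10 and Cyp2d22 probes the files list 1 gene each. Their longest run shared with a probe of another Cyp2d or Cyp2j gene on the array was 9 bases for Cyp2d10 and 8 bases for Cyp2d22. Probes were compared only with probes, not with the transcripts of other genes. These runs therefore cannot show that a probe reads 1 gene only.

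The LB1 arrays were dimmer than the control arrays. Taking the processed signal's 75th percentile on each array gave 146.9 and 80.8 for LB1 arrays 1 and 2, against 410.9 and 414.7 for control arrays 1 and 2. Unless signals are named, values below are log2 of the processed signal minus this percentile, so that 0 is the array's own 75th percentile. After this scaling the median of all 22967 tested probes was 0.16 higher in LB1. A test call is a limma p-value adjusted by Benjamini-Hochberg over all these probes that lies under 0.05. With this rule 19.2% of the tested probes were higher and 13.2% lower in LB1, or 4409 and 3031 probes. These counts were 2515 and 3983 under quantile normalization and 1654 and 7125 with each array's median as reference. They dropped to 125 and 14 without control array 1 and to 0 and 1 without control array 2, where 3450 and 2370 had an unadjusted p under 0.05. Slide 1 held LB1 array 1 and control array 1, and slide 2 held both second arrays, so a difference is also given within each slide. An exact permutation test of 4 arrays has 6 assignments and cannot give a two-sided p below 0.333. Groups that do not overlap, as described below for single probes, give just this p. The share of all probes without overlap was not counted. Liver identity was clear: 14 of 14 hepatocyte markers were well above background on all 4 arrays.

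All 11 probes were well above background on all 4 arrays. Cyp2d10 and Cyp2d22 fell in LB1 livers at 3 probes, with log2 differences of -1.37, -1.50 and -2.15. The Cyp2j5 probes differed by -0.23 and 0.10 and did not pass the test. Cyp2d9, Cyp2d26, Cyp2f2 and the other Cyp2d10 probe, 5 probes in all, were saturated on both control arrays, so their control level is only a lower limit. No test is given for them. Of the 6 measured probes, which belong to 3 genes, 0 were higher, 3 were lower and 3 did not pass (limma, adjusted over all tested probes). The same rule called 19.2% higher and 13.2% lower array-wide. More than 1 of the lower probes is from Cyp2d22, so they are not 3 separate genes. At an unadjusted p under 0.05 the counts for the 6 measured probes were 1 higher and 3 lower. Array-wide these counts were 6637 and 4552, out of 22967.

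**Figure D1:**
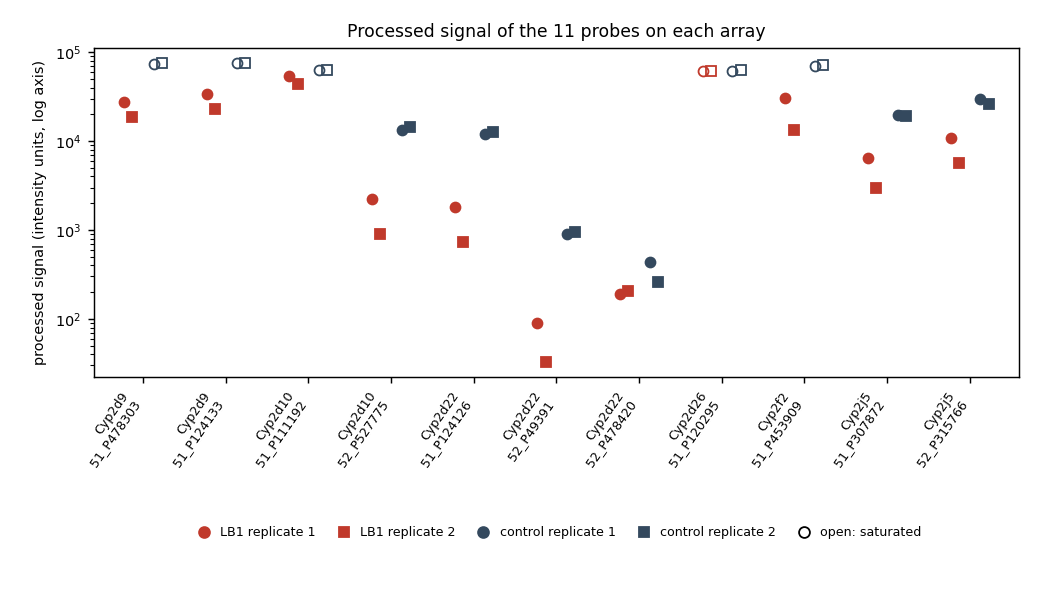
Processed signal in intensity units on a log axis for each of the 11 probes, with LB1 arrays (red) left of control arrays (dark blue). Circles are replicate 1, squares replicate 2, and open symbols are saturated spots; the control spots of Cyp2d9, Cyp2d26, Cyp2f2 and 1 Cyp2d10 probe are open.

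Cyp2d22 is the mouse enzyme often compared with human CYP2D6. At the probe shown above its scaled level was 3.62 and 3.20 in LB1 livers, against 4.88 and 4.93 in control livers. Both LB1 livers lay below both control livers. The mean was 3.41 ± 0.30 in LB1 and 4.90 ± 0.03 in control (SD, n = 2 each). The difference was -1.50 with SE 0.25 (95% interval -2.13 to -0.87), or 2.83-fold lower, with an adjusted p of 0.0228 in limma. It was -1.27 within slide 1 and -1.73 within slide 2. Relative to the median of all probes it was -1.66.

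A second Cyp2d22 probe, A_52_P49391, is tied in the files to a cDNA clone and lies downstream of the first on this strand, at chr15:82201687-82201746. Its level was -0.69 and -1.29 in LB1 livers, against 1.13 and 1.18 in control livers, again without overlap. The difference of -2.15 (SE 0.28, limma adjusted p = 0.0212) amounts to 4.44-fold lower. The difference was -1.42 with normexp and -2.79 when scaled to the array median. At that scaling the first Cyp2d22 probe gave -2.13. All of these passed the test in limma. The third Cyp2d22 probe, A_52_P478420, is tied to another clone, with no RefSeq transcript listed for it or the second, and lies upstream at chr15:82205919-82205978. There the level was 0.39 and 1.34 in LB1 livers, against 0.07 and -0.68 in control livers. Both LB1 livers lay above both control livers, opposite to the other Cyp2d22 probes. The difference of 1.17 (SE 0.44) did not pass the test (limma adjusted p = 0.0936), and it was 0.32 within slide 1 and 2.02 within slide 2. Without LB1 array 1 it was 1.64 and passed (limma adjusted p = 0.0383).

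Cyp2d10 is a liver-expressed enzyme of the same cluster with 2 probes on the array. At the probe shown above the level was 3.92 and 3.49 in LB1 livers, against 5.03 and 5.11 in control livers. The groups did not overlap. The mean was 3.71 ± 0.30 in LB1 and 5.07 ± 0.06 in control (SD, n = 2 each), a difference of -1.37 with SE 0.25 (95% interval -2.003 to -0.730), or 2.58-fold lower (limma adjusted p = 0.0243). Within slides it was -1.11 and -1.62. Scaled to the array median it was -2.002. The other Cyp2d10 probe, A_51_P111192 at chr15:82233388-82233447, gave processed signals of 53519 and 43268 in LB1 livers, against 62308 and 63174 in control livers. On the control arrays 65 of 66 and 64 of 66 pixels of this spot were saturated, against 7 of 65 and 0 of 60 on the LB1 arrays. Apart from the 7 saturated LB1 pixels, whose true signal could raise it, its scaled difference of 1.54 is an upper limit. The value may be anywhere below it.

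For the 3 called probes, each call was lost when either control array was left out, since the single remaining control is then assumed to vary like the LB1 arrays. Without control array 1 the limma adjusted p was 0.114 for Cyp2d10, 0.1001 for the first Cyp2d22 probe and 0.0706 for the second. Without control array 2 these were 0.157, 0.143 and 0.127. The differences themselves moved little, to between -1.41 and -1.33 for Cyp2d10. Each call was kept without either LB1 array. In whole liver, fewer cells of a type and less RNA per cell cannot be told apart.

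Cyp2d9 is a steroid hydroxylase known for higher levels in male than in female mouse liver. The first of its probes gave processed signals of 27802 and 18581 in LB1 livers, against 73369 and 75045 in control livers. At the second probe they were 33946 and 23184 in LB1 livers, against 75153 and 75877 in control livers. Both control spots were saturated at both probes and neither LB1 spot was. The scaled LB1 minus control differences were therefore at most 0.22 and 0.49. Because these limits lie above 0, the direction at the 75th-percentile scaling is not determined. Under quantile normalization the values were -0.93 and -0.79. They are not limits, since quantile normalization uses ranks and the ranks of saturated spots among each other are not known. Since the files list Cyp2d22 for both probes, part of any difference may be that of Cyp2d22, which was not tested.

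Cyp2d26, another enzyme of the cluster, was saturated on all 4 arrays. Its probe at chr15:82620575-82620634 gave 61790 and 61261 in LB1 livers, against 61075 and 62797 in control livers. At least 63 pixels of each spot were at the scanner's ceiling of 65525. No statement on Cyp2d26 is possible from these arrays beyond a high signal in both groups.

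Cyp2f2 was read by 1 probe, at chr7:27918570-27918629 on the plus strand. It gave 30239 and 13462 in LB1 livers, against 70345 and 72220 in control livers, where both spots were saturated. The scaled difference was at most 0.10, with limits of 0.27 within slide 1 and -0.06 within slide 2. Under quantile normalization the value was -0.93, which is not a limit because saturated spots have no known rank. Markers of the airway club cell, the other known site of this enzyme, summed to 0.743 and 0.637 on LB1 arrays and to 0.313 and 0.192 on control arrays, in units of each array's 75th percentile. Of the 7 markers, Sftpc and Foxj1 were below background on all 4 arrays. Scgb1a1 was below background on both LB1 arrays but on neither control array. Scgb3a1, a secreted protein of these cells, was higher in LB1 by 2.16 (SE 0.50, limma adjusted p = 0.0347), with signals of 13.6 and 15.6 in LB1 livers, against 17.4 and 8.77 in control livers. Scgb3a1 was not well above background on control array 2, and its call was lost under quantile normalization, at 1.28.

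Cyp2j5 has 2 probes, at chr4:96296016-96296075 and chr4:96295912-96295971 on the minus strand. At the first the level was 5.47 and 5.19 in LB1 livers, against 5.58 and 5.53 in control livers. Both LB1 values lay below both control values, by less than the error: the difference of -0.23 with SE 0.23 (95% interval -0.81 to 0.35) did not pass the test (limma adjusted p = 0.459). At the second the level was 6.21 and 6.14 in LB1 livers, against 6.17 and 5.98 in control livers, and the groups overlapped. The difference was 0.10 with SE 0.22 (95% interval -0.45 to 0.66, limma adjusted p = 0.732). These intervals leave room for changes of either sign. Both values were more negative under each other scaling run. With normexp background correction in place of the deposited one they were -0.81 and -0.46, past the test (limma adjusted p = 0.00619 and 0.0358). Of 8 kidney markers, Umod, Slc34a1 and Slc12a3 were not well above background on any of the 4 arrays. The list summed to 1.33 and 1.44 on LB1 arrays and to 0.704 and 0.456 on control arrays. Slc12a1, the salt carrier of the kidney's loop of Henle, was higher in LB1 by 3.04 (SE 0.68, limma adjusted p = 0.0316). Its signals were 20.0 and 16.2 in LB1 livers, against 16.3 and 4.23 in control livers. On control array 2 it was not well above background.

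**Figure D2:**
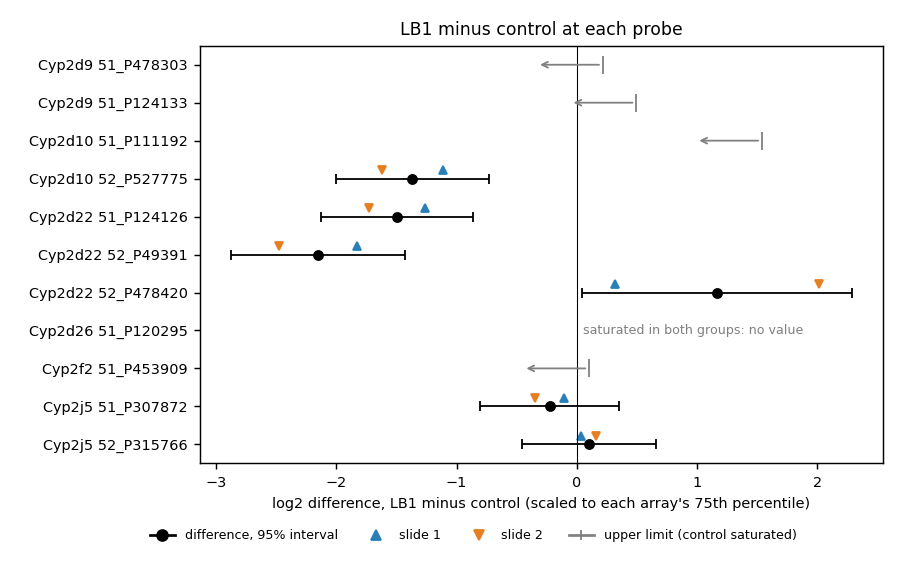
LB1 minus control difference at each probe, in log2 units scaled to each array's 75th percentile. Black points with bars are the difference and its 95% interval from limma, triangles are the values within each slide, and grey arrows start at the upper limit of the 4 probes saturated on both control arrays but not on the LB1 arrays. At the Cyp2d10 probe with an arrow, some LB1 pixels were also saturated. Cyp2d26, saturated on all 4, has no value, and 3 intervals of Cyp2d10 and Cyp2d22 lie wholly below 0.

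A difference between 2 probes on the same array does not depend on a scaling that uses 1 factor per array. It can move under quantile normalization or another background correction. Of 15 pairs among the 6 measured probes, each gave an exact two-sided permutation p of 0.333, the smallest that 4 arrays allow, and 0.333 after adjustment over the pairs. The first Cyp2d22 probe minus the first Cyp2j5 probe was -1.85 and -1.99 on LB1 arrays, against -0.70 and -0.61 on control arrays. The LB1 arrays thus differed from the control arrays by -1.27 in this contrast, with -1.16 within slide 1 and -1.38 within slide 2. It was -1.18 with normexp and -1.19 with quantile normalization. For Cyp2d10 against the same Cyp2j5 probe it was -1.14, with -1.01 and -1.27 within slides. Cyp2d10 and the first Cyp2d22 probe differed from each other by only 0.13, with 0.15 and 0.11 within slides. The first Cyp2d22 probe minus the third was -2.67, with -1.58 and -3.75 within slides, so probes filed under 1 gene name moved further apart than Cyp2d10 and Cyp2d22 did. The contrast between the first and second Cyp2d22 probes changed sign with the background correction, at 0.65 with the processed signal, 0.40 with quantile normalization and -0.57 with normexp.

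**Figure D3:**
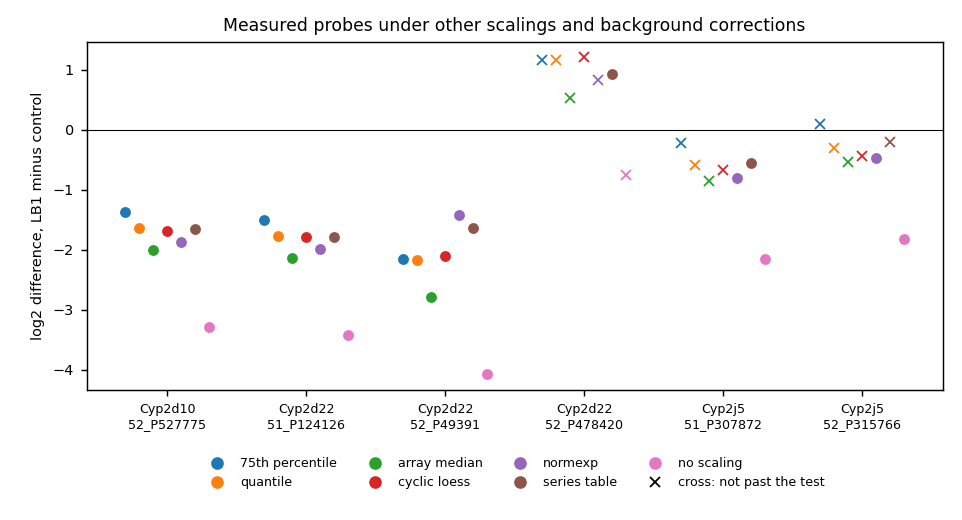
LB1 minus control difference in log2 units of the 6 measured probes under 7 scalings or background corrections, coloured by setting. Filled circles passed the test and crosses did not; the Cyp2d10 probe and the first 2 Cyp2d22 probes were lower in LB1 under all 7, while the second Cyp2j5 probe was above 0 under 1 only.

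Promoters of Cyp2d genes are shown for their close sequence. Of the genes shown, only Cyp2d10 has a measured difference. RefSeq promoters of GRCm38.p6 were found for 5 of the 6 genes, all but Cyp2d22. The 120 bases before the start of Cyp2d9 (chr15:82452257-82452376, plus strand), Cyp2d10 (chr15:82407195-82407314, minus strand) and Cyp2d26 (chr15:82794246-82794365, minus strand) are given in the direction of transcription. Capitals mark ACAAAGGGCA, part of a direct-repeat sequence of the kind that HNF4A binds, and TTTATAAGG, a TATA-like sequence.
Cyp2d9: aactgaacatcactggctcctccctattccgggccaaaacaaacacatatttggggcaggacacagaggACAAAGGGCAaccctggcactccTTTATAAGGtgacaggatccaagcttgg
Cyp2d10: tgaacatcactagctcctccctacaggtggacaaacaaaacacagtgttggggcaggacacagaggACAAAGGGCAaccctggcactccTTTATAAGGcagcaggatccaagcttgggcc
Cyp2d26: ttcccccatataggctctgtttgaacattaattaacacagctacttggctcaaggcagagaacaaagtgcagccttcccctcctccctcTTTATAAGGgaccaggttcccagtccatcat
Both motifs were chosen after these promoters were read. ACAAAGGGCA starts at position -51 in Cyp2d9 and -54 in Cyp2d10, counted from the annotated start. On either strand it occurs in the 250 upstream bases of 35 of 32851 RefSeq promoters. TTTATAAGG starts at position -28 in Cyp2d9 and at -31 in Cyp2d10 and Cyp2d26, and occurs in 79 of the same promoters. The motifs do not overlap. Neither was found in these 120 bases of Cyp2f2 or Cyp2j5. Cyp2d9 and Cyp2d10 were identical at 102 of 123 aligned columns, and Cyp2d9 and Cyp2d26 at 76 of 131. A match describes letters only, and binding was not measured.

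Among other genes of these families, 7 of 12 listed were on the array and 2 of the 7 were lower in LB1, where 10.4% of 13435 genes, each represented by its brightest probe, were lower and 20.6% higher. None of the 7 was higher in limma, with 1 higher and 2 lower at an unadjusted p under 0.05. Cyp2j6, known as an intestinal enzyme of its family, gave signals of 262 and 115 in LB1 livers, against 1804 and 1788 in control livers. Its difference was -1.45 with SE 0.23 (limma adjusted p = 0.0221), although a second Cyp2j6 probe at -1.75 did not pass (limma adjusted p = 0.251). Cyp2d12 gave 6204 and 3316 in LB1 livers, against 30211 and 37231 in control livers. Its scaled difference was -0.96 with SE 0.23 (limma adjusted p = 0.0347), at -0.80 and -1.13 within slides. At the Cyp2d12 probe and the first Cyp2j6 probe both LB1 arrays lay below both control arrays, while at the second Cyp2j6 probe the groups overlapped. Cyp2d13 at 1.11, Cyp2d34 at 0.50, Cyp2j9 at 0.31, Cyp2j13 at -0.54 and Cyp2j11 at -0.91 did not pass. The Cyp2j13 probe is also listed for Cyp2j12, and Cyp2j11 was well above background on 1 LB1 array only. The median of the 7 was -0.54, beside 0.25 for all genes.

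**Figure D4:**
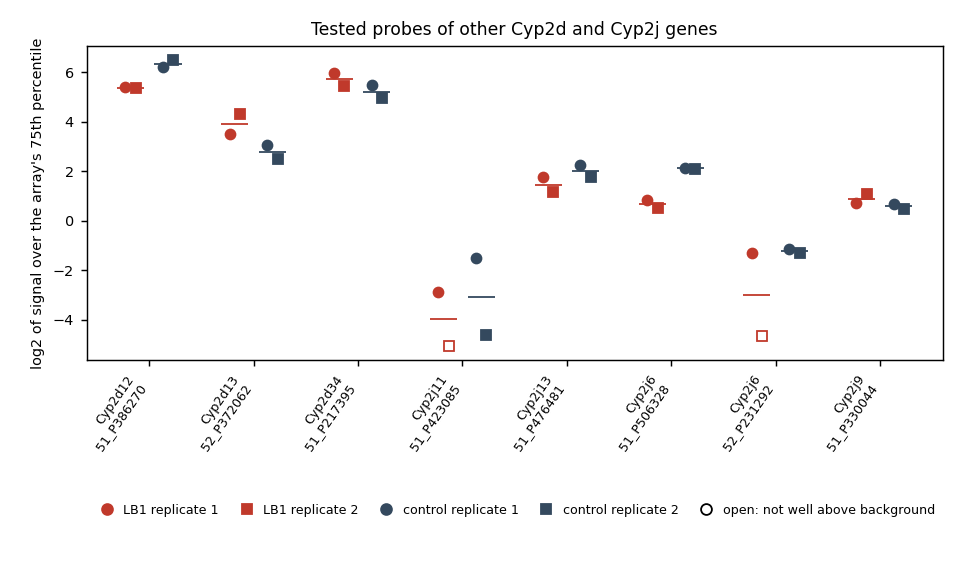
Log2 of processed signal over the array's 75th percentile for the 8 tested probes of other Cyp2d and Cyp2j genes, LB1 (red) left of control (dark blue), with a line at each group's mean. Circles are replicate 1, squares replicate 2, and open symbols are not well above background; the Cyp2d12 probe and the first Cyp2j6 probe passed the test, both lower in LB1.

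Few of the partners that serve these enzymes passed the test. Of 18 genes for electron donors and haem supply, 1 was higher and 17 did not pass, beside 20.6% higher and 10.4% lower among all genes. At an unadjusted p under 0.05, 4 were higher and 0 lower in limma. With normexp 0 were higher and 4 lower past the adjusted test, and 0 and 6 at an unadjusted p under 0.05. The 1 higher gene was Cyb5a, the cytochrome b5 electron donor, whose control spots were both saturated, making its difference of 0.83 an upper limit. The slide block ended this call (limma adjusted p = 0.0600). Quantile normalization gave -0.58, which is not a limit because saturated spots have no known rank. Por, singled out after its values were seen, gave 25890 and 19387 in LB1 livers, against 54218 and 52041 in control livers, where 1 spot was saturated. Its difference of 0.68 (SE 0.25) did not pass (limma adjusted p = 0.0923). The list's median was 0.13, near the 0.25 of all genes.

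In the wider P450 family more genes were lower than higher. Of 30 tested Cyp1, Cyp2 and Cyp3 genes outside these subfamilies, 4 were higher and 10 lower, with a median of -0.44. Among all genes 20.6% were higher and 10.4% lower, with a median of 0.25. Without genes saturated on any array the counts were 1 higher and 9 lower of 21. Over the 30 genes they were 1 and 12 under quantile normalization, 3 and 15 at the array median and 7 and 17 with normexp. Cyp2c54 (-2.60, SE 0.32) and Cyp2b10, a target of the receptor Nr1i3 (-1.82, SE 0.22), fell in LB1, both with a limma adjusted p of 0.0211. Cyp2s1, a P450 of epithelia outside the liver, was higher by 5.33 (SE 0.96, limma adjusted p = 0.0243), with signals of 265 and 504 in LB1 livers, against 77.8 and 15.1 in control livers.

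Arachidonic acid is the substrate by which Cyp2j5 is known. Of 16 tested genes for its release and for epoxide handling, 2 were higher and 2 lower, with 1 of the higher genes saturated on some array. These counts were 0 and 4 under quantile normalization, 1 and 5 at the array median and 6 and 5 with normexp. Cyp4a12b, a fatty acid hydroxylase, was lower by -2.02 (SE 0.22, limma adjusted p = 0.0201), and its neighbour Cyp4a12a was higher by 1.51 (SE 0.41, limma adjusted p = 0.0469) before the slide was blocked. The call was lost with the slide block (limma adjusted p = 0.0571) and under quantile normalization, where the difference was 1.25. Pla2g4a, which releases arachidonic acid, was lower by -1.84 at the deposited background but higher by 0.55 with normexp, and was below background on both LB1 arrays. Its direction is therefore not settled.

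Of 20 tested transcription factors that act on P450 genes, 7 were higher and 1 lower, with a median of 0.46, beside 20.6% higher and 10.4% lower among all genes. These counts were 5 and 1 under quantile normalization, 2 and 2 at the array median and 7 and 4 with normexp. Nfia, a nuclear factor I protein, was higher by 2.05 (SE 0.25, limma adjusted p = 0.0211) and Cebpb, a liver leucine zipper factor, by 1.49 (SE 0.21, limma adjusted p = 0.0214). The unscaled signal of Nfia was 2755 and 2088 in LB1 livers, against 2203 and 2188 in control livers, before scaling to the dimmer LB1 arrays. Ahr, the receptor for dioxin-like ligands, was lower by -1.36 (SE 0.24, limma adjusted p = 0.0238). Hnf4a, for which the direct-repeat sequence above is known, differed by 0.54 (SE 0.23, limma adjusted p = 0.125) and did not pass.

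Several Cyp2d genes are known to differ between the sexes through the growth hormone axis. Of 13 tested genes of this axis, 3 were higher and 1 lower, a share near that of all genes. The balance turned with the setting, to 2 higher and 3 lower under quantile normalization, 1 and 4 at the array median and 4 and 5 with normexp. Stat5a, a factor that growth hormone activates, differed by 1.80 (SE 0.24, limma adjusted p = 0.0212), the oestrogen receptor Esr1 by 1.19 (SE 0.25, limma adjusted p = 0.0289) and Jak2, the kinase that acts on it, by -1.35 (SE 0.32, limma adjusted p = 0.0350). Of 13 male-biased liver genes 4 were higher and 2 lower, and of 19 female-biased genes 2 were higher and 5 lower. Among all genes 20.6% were higher and 10.4% lower. Male-biased counts were 2 and 2 both under quantile normalization and at the array median, and 8 and 3 with normexp. Female-biased counts were 0 and 6 under quantile normalization, 1 and 10 at the array median and 3 and 7 with normexp. The 2 higher female-biased genes and 1 of the 4 higher male-biased genes were saturated on at least 1 array. The fatty acid elongase Elovl3, male-biased, was higher by 2.77 (SE 0.59, limma adjusted p = 0.0300), and Ugt2b38, also male-biased, was lower by -2.65 (SE 0.23, limma adjusted p = 0.0201). Male-biased Gpcpd1 was higher by 2.69 (SE 0.67, limma adjusted p = 0.0388). Of the female-biased genes, the reticulon Rtn4 was lower by -3.26 (SE 0.27) and the acyl-CoA thioesterase Acot3 by -2.48 (SE 0.28), both with a limma adjusted p of 0.0201.

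Liver lobules divide P450 expression between zones. Of 19 tested periportal genes 3 were higher and 3 lower, with a median of 0.01. Of 20 pericentral genes 2 were higher and 3 lower, with a median of -0.24. Among all genes 20.6% were higher and 10.4% lower, with a median of 0.25. Without genes saturated on any array the counts were 1 higher and 2 lower of 14 periportal genes, and 1 higher and 3 lower of 18 pericentral genes. Periportal counts were 2 and 7 both under quantile normalization and at the array median, and 3 and 10 with normexp. Pericentral counts were 1 and 4 under quantile normalization, 1 and 8 at the array median and 2 and 9 with normexp. Cyp7a1, the first enzyme of bile acid synthesis and a pericentral gene, was lower by -2.95 (SE 0.36, limma adjusted p = 0.0211). The periportal dehydrogenase Hsd17b13 was lower by -2.39 (SE 0.32, limma adjusted p = 0.0212), as was the protease gene Ctsc by -1.36 (SE 0.25, limma adjusted p = 0.0247). Uroc1, the periportal urocanase, differed by 1.12 (SE 0.22, limma adjusted p = 0.0262), a call lost under quantile normalization at 0.71. Pericentral Tbx3, a transcription factor, was higher by 1.35 (SE 0.23, limma adjusted p = 0.0233).

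Lists of markers of other cells differed in their counts and sums, beside 20.6% higher and 10.4% lower among all genes. Of 12 tested mesothelial markers 10 were higher and 0 lower in LB1 (limma, also 0 lower at an unadjusted p under 0.05). Their sum over all 15 was 89.6 and 136 on LB1 arrays, against 51.6 and 67.1 on control arrays, in units of each array's 75th percentile. Krt7, a keratin, and Muc16, a surface mucin, were higher by 4.69 (SE 0.80) and 5.30 (SE 0.91), with limma adjusted p of 0.0231 and 0.0234. Within slides 1 and 2 the differences were 2.98 and 6.41 for Krt7 and 3.31 and 7.29 for Muc16. On LB1 arrays 3 and 1 of the 15 were not well above background, against 4 and 9 on control arrays. Muc16 was among the 9 on control array 2. Krt7 and Krt19 are also cholangiocyte markers, of which 3 were higher and 1 lower of 5 tested. Of 4 tested erythroid markers 3 were higher, and the list summed to 546 and 629 on LB1 arrays, against 158 and 91.5 on control arrays. Among the 4, 1 gene was saturated on some array and is part of these sums. Of the other 3, 2 were higher. Of 6 tested striated muscle markers 3 were higher, with sums of 3.58 and 8.37 on LB1 arrays, against 0.880 and 0.639 on control arrays. The Kupffer cell and macrophage list summed to 102 and 109 on LB1 arrays, against 101 and 107 on control arrays. Of its 9 tested genes 0 were higher and 1 lower, with a median of -0.27, beside 0.25 for all genes. Its counts were 0 and 1 under quantile normalization, 0 and 4 at the array median and 0 and 5 with normexp. The lower gene was Vsig4, by -1.59 (SE 0.23, limma adjusted p = 0.0212). The hepatocyte list summed to 4034 and 5943 on LB1 arrays, against 1899 and 1941 on control arrays, but 10 of its 14 genes were saturated on some array. The part of any of these cells in the Cyp2d and Cyp2j values was not tested.

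The genes most like each measured probe were sought by the root mean square distance between the 4 centred log2 values, over 11318 genes unsaturated and well above background on all 4 arrays. For Cyp2d10 they were Scarb2 (0.0160), Tmem251 (0.0223) and Lrsam1 (0.0279), and 141 genes lay within 0.1. For the first Cyp2d22 probe they were Pus3, Pdhb and Adnp, with 91 genes within 0.1, and for the second Gm5529, Mob1b and Dars, with 12. The third Cyp2d22 probe was closest to Adam8, Tmem25 and Pde6g, with 7 genes within 0.1. For the Cyp2j5 probes, Nbr1, Ddit3 and Rnpc3 and, for the second, Wwtr1, Rnf168 and Id2 were closest, with 409 and 335 genes within 0.1. With 4 arrays, many genes share a pattern.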

How the data were processed

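The deposited scanner files hold linear spot intensity. Per the file headers, Feature Extraction 10.5.1.1 subtracted background and detrended each array, and did nothing between arrays. Detrending can lift a processed signal above the scanner's ceiling. In the deposited table of the series, 100% of values lay within 0.5 of the mean spot intensity, so the scale is linear, with no background correction, centring or scaling; its medians were 62 and 45 for LB1 and 70 and 65 for control.

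Control and outlier spots were left out, and log2 processed signal minus the 75th percentile of the array's 43379 spots was averaged per probe. A probe was tested if both arrays of either group lay well above background, using lmFit and eBayes (limma 3.58.1, R 4.3.3; checked on simulated data). RefSeq GRCm38.p6 named probes by accession (24836), symbol (6051) or synonym (1809), and 8478 kept the file's name. A probe saturated on both control arrays but on no LB1 array gives an upper limit, apart from the saturated LB1 pixels of a Cyp2d10 probe. Every probe of the 6 genes is named, and per context list the 2 called, unsaturated genes with the smallest p in each direction. The members, lists and motifs were chosen with earlier results of these data known. With 4 arrays, their number limits the precision.

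Same-numbered arrays share a slide and scan, per the file headers; the labels tie no batch to the numbers. Their deviations from the group means correlated at 0.151 across probes, over 2 pairs only. Arrays correlated at 0.973 within LB1, 0.989 within control and 0.906 to 0.950 across groups. Alternatives were normexp (offset 50), other scalings, the series table, filters, trend and robust eBayes, the replicate block, each array left out, and the methods' t-test. Unscaled signals were added after the data were seen.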

Additional observations from a re-analysis of the deposited data

How the results depend on the processing

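The 3 calls, Cyp2d10 at -1.37 and Cyp2d22 at -1.50 and -2.15, kept their direction under every alternative run and passed the limma test under each except those that left out a control array. With the replicate block, which here is also the slide, their limma adjusted p was 0.0332, 0.0311 and 0.0308, and the block changed no call of the 6 measured probes. In the methods' t-test the same 3 differences had adjusted p of 0.143, 0.140 and 0.140, and over all probes it left 0 higher and 0 lower, against 2228 and 1881 past the methods' unadjusted limit and minimum of 2-fold. Leaving out 1 array gave -1.58 to -1.15, -1.71 to -1.29 and -2.45 to -1.85 for the 3 probes, 0.69 to 1.64 for the third Cyp2d22 probe, and -0.37 to -0.08 and 0.01 to 0.20 for Cyp2j5. The all-probe counts then ranged from 0 to 6010 higher and from 1 to 5018 lower, the last without LB1 array 1: 125 and 14 without control array 1, and 0 and 1 without control array 2, where 3450 and 2370 had an unadjusted p under 0.05.

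Cyp2j5 depended on the scaling. Its first probe passed the test with normexp (-0.81), the series table (-0.56) and no scaling (-2.15). Its second turned negative with normexp (-0.46), quantile (-0.31), the array median (-0.53), cyclic loess (-0.44), the 75th percentile over detected unsaturated probes (-0.0068), the series table (-0.21) and no scaling (-1.82). The third Cyp2d22 probe passed with the series table (0.93) and without LB1 array 1 (1.64), and was -0.76 with no scaling. Quantile scaling left 2515 higher and 3983 lower probes, the array median 1654 and 7125, cyclic loess 2902 and 3988, normexp 11345 and 4643, the deposited series values 10687 and 3758, no scaling 137 and 15171, and no filter 17556 and 3127, so the share of calls that were higher ran from 0.895% with no scaling to 84.9% with no filter, beside 59.3% as reported. The cause of these shifts was not tested. The median of all probes moved to -0.09 with quantile scaling, -0.47 with the array median, 0.44 with normexp and -1.76 with no scaling. Saturation on the control arrays limits Cyp2d9, Cyp2d26, Cyp2f2 and 1 Cyp2d10 probe under each.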
